A study of Mus musculus with 25 samples.

Results

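The 10 heat shock and chaperone genes described here are Hsf1, Hspa8, Hspa4, Hsph1, Dnajb1, Hsp90aa1, Hsp90ab1, Hspa5, Hspd1 and Hspe1. They were taken by gene name, 10 of 17591 genes with listed introns, and they hold 96 of 163315 introns. All 10 passed the filter on low counts (13001 genes did), and 76 of their introns were covered well enough to test (52042 of all introns were). The level of a gene is its spliced reads, which are the reads overlapping its introns minus the reads inside them, summed over introns and given as CPM, the spliced reads scaled to a common library total. The intronic share is the percent of overlapping reads that lie inside the intron.

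The tumors were transplants of mouse triple-negative breast cancer models in the mammary gland of female mice, 4 to 5 weeks old at transplant. The mice received the splicing modulator H3B-8800 or vehicle each day until collection, and whole tumors gave the RNA. PyMT-M tumors (4 H3B-8800, 4 vehicle) and AT3 tumors (2 H3B-8800, 3 vehicle) grew in C57BL/6 mice, and 2208L tumors (3 H3B-8800, 3 vehicle) and T11 tumors (3 H3B-8800, 3 vehicle) in Balb/c mice. By the labels, the responders are PyMT-M and 2208L and the nonresponders AT3 and T11, so each host strain holds 1 model of either response, and neither strain nor response can be told apart from model. A lower value in whole tumor can mean fewer cells of a type or less RNA per cell, which cannot be told apart here.

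Heat shock proteins are chaperones that bind unfolded protein and help it fold, refold or be degraded. HSF1 is the transcription factor that switches on the cytosolic set when unfolded protein builds up, and it is held inactive by those chaperones in unstressed cells. The endoplasmic reticulum has a separate response, which raises Hspa5, and the mitochondrial pair Hspd1 and Hspe1 forms a folding chamber. H3B-8800 binds the SF3B complex, which recognises the branch point of an intron, so introns are read beside levels throughout.

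Libraries held 9820825 to 19700955 spliced and 858362 to 5684308 intronic reads. Over all genes, 17.8 to 27.8% of reads lay inside introns in PyMT-M H3B-8800 libraries and 10.5 to 20.001% in vehicle libraries. The shares were 14.2 and 20.4% in AT3 H3B-8800 libraries against 9.63 to 15.9% with vehicle, and 13.3 to 14.9% in 2208L H3B-8800 libraries against 7.90 to 10.4% with vehicle. In T11 the order turned round, with 9.33 to 11.96% in libraries labelled H3B-8800 and 11.5 to 18.1% in libraries labelled vehicle. T11 groups are therefore named by their labels below, and T11 is left out of the mean effect over models. Whether the T11 labels are exchanged was not tested. If they were, every T11 drug value below would change sign, and the group labelled T11 vehicle would be the treated one in the comparisons between models. Of 25 libraries, 6 passed a marker limit, a skeletal muscle sum over 100 CPM or a B cell sum over 10 times the median of the other libraries of their group. The muscle marker sum was 4631 CPM in 2208L vehicle replicate 1 and 7339 CPM in T11 vehicle replicate 3. It was 669 CPM in T11 H3B-8800 replicate 2, and 477 and 288 CPM in PyMT-M H3B-8800 replicates 1 and 2. Macrophage markers also moved with treatment, with a sum of 2897 to 3531 CPM in 2208L H3B-8800 libraries against 294 to 1582 CPM with vehicle, and 845 to 1290 CPM in PyMT-M H3B-8800 libraries against 189 to 526 CPM with vehicle. In AT3 the macrophage sum was 2500.4 to 2735 CPM with H3B-8800 and 1264 to 2054 CPM with vehicle. B cell markers moved with treatment in 2208L, at 47.3 to 70.1 CPM in all 3 H3B-8800 libraries and 3.32 to 7.05 CPM with vehicle, so the limit, set within groups, did not mark those libraries. Epithelial markers, of which 8 of 10 were listed, summed to 3193 to 6632 CPM in PyMT-M and 2208L libraries and only 101 to 509 CPM in T11 and AT3 libraries. The part of these cells in the results was not tested.

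One library in each model had reads piled toward the 3′ end of genes. Over 1231 genes with 6 or more introns, the median log2 ratio of spliced reads at the last junction over the first was 1.73 in AT3 H3B-8800 replicate 1, 1.70 in PyMT-M vehicle replicate 4, 1.36 in 2208L vehicle replicate 1 and 1.39 in T11 vehicle replicate 1. The other 21 libraries ran from 0.43 to 1.21. Those 4 libraries had the highest level of their own group for Hspa8, Hspa4, Hspe1, Dnajb1 and Hsf1, in 4 of 4 cases each, and for Hspa5 in 0 of 4. Without them, the counts of changed members under the drug were the same in all 4 models, with values given below where they differ. The ratio also moved with treatment in PyMT-M, at 0.43 to 0.56 with H3B-8800 and 0.61 to 1.70 with vehicle. In 2208L it was 0.63 to 0.67 with H3B-8800 and 0.79 to 1.36 with vehicle, while the groups overlapped in AT3 and T11. Leaving out the 4 libraries does not remove this difference in PyMT-M or 2208L, and its part in the results was not tested.

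Under H3B-8800, few members passed the test in level, and many of their introns passed. Of the 10 genes, 1 fell in PyMT-M (Hsf1), none passed in AT3, 1 fell in 2208L (Hspa8), and in T11 Hspa4 was lower and Hsf1 higher in libraries labelled H3B-8800 (edgeR quasi-likelihood test, Benjamini-Hochberg adjusted over 13001 genes). Over all genes, 24.8% passed in PyMT-M, 0.3% in AT3, 10.3% in 2208L and 11.7% in T11, so 1 or 2 of 10 is no more than the background in PyMT-M and close to it in 2208L and T11. Falls alone made up 14.6% in PyMT-M and 5.67% in 2208L, and in T11 6.66% were higher and 5.07% lower. In AT3, 2 of the 10 had an unadjusted p under 0.05, a count not made over all genes, and DESeq2 called 0. Averaged over PyMT-M, AT3 and 2208L, 2 of 10 fell (Hsf1 and Hspa8), where 23.9% of all genes passed and 13.2% fell.

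**Figure D1:**
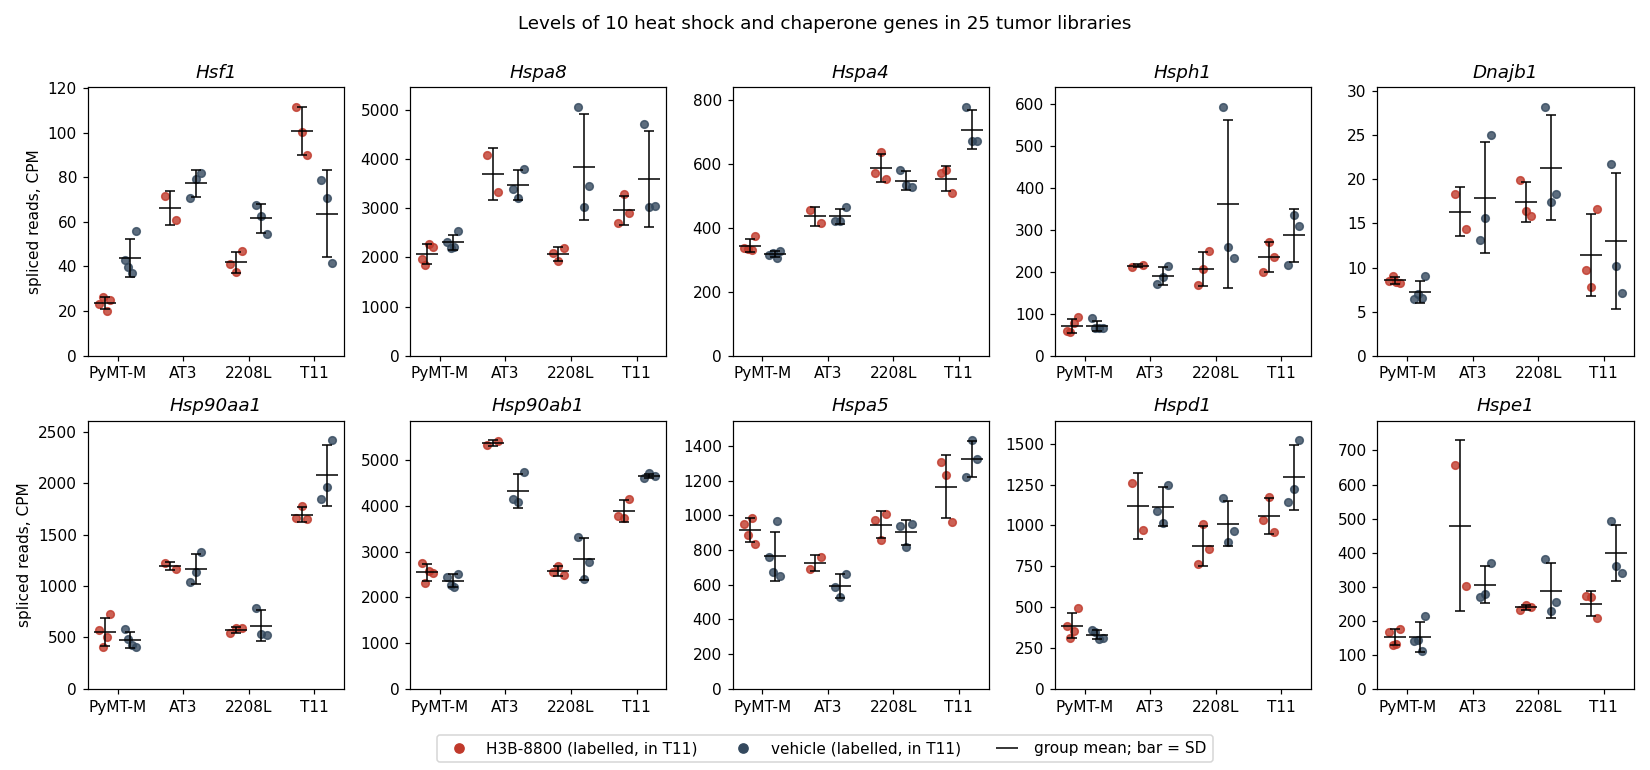
Level in CPM of the 10 genes in each of 25 libraries, a panel per gene, H3B-8800 left of vehicle in each model, with group means and SD as bars. Hsf1 averages 23.6 CPM with H3B-8800 and 43.8 CPM with vehicle in PyMT-M, and most other panels show groups that overlap.

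Hsf1, the transcription factor of the heat shock response, lies at chr15:76477445-76500972 on the plus strand (mm10) with 12 exons. In PyMT-M its level was 23.4, 26.2, 20.1 and 24.9 CPM with H3B-8800, against 42.7, 39.8, 37.0 and 55.9 CPM with vehicle. Every H3B-8800 tumor lay below every vehicle tumor. The level fell by 0.89 ± 0.17 on the log2 scale (SE; edgeR adjusted p = 0.000809), and by 0.76 without the 4 libraries skewed to the 3′ end.

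In 2208L, Hsf1 was at 41.2, 37.4 and 46.7 CPM with H3B-8800 and at 67.3, 62.6 and 54.7 CPM with vehicle, again without overlap, with a log2 difference of -0.56 ± 0.19 that missed the threshold (edgeR adjusted p = 0.0698). In AT3 it was at 71.6 and 60.7 CPM with H3B-8800 and at 70.5, 79.0 and 82.0 CPM with vehicle, so the groups overlapped (log2 difference -0.22 ± 0.22, edgeR adjusted p = 0.745). The mean effect of the 3 models was -0.56 ± 0.11 (edgeR adjusted p = 0.00128). In T11 the libraries labelled H3B-8800 had 111.4, 100.3 and 90.1 CPM and those labelled vehicle 78.6, 70.5 and 41.6 CPM, a log2 difference of 0.66 ± 0.19 (edgeR adjusted p = 0.0305). Without T11 vehicle replicate 3, the library with the most muscle transcripts, the difference was 0.43 (edgeR adjusted p = 0.113). The call was also lost without T11 H3B-8800 replicate 1, or without replicate 2, which passed the muscle limit too (edgeR adjusted p = 0.109 and 0.0577).

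The fall was one of spliced reads. Counting every overlapping read in PyMT-M, Hsf1 averaged 84.7 ± 13.0 CPM with H3B-8800 and 58.1 ± 11.5 CPM with vehicle (SD, n = 4 each), a log2 difference of 0.24 that did not pass (edgeR adjusted p = 0.267). In 2208L the same count was 67.0 ± 7.62 CPM with H3B-8800 and 68.9 ± 6.36 CPM with vehicle (SD, n = 3 each). Over all its introns, the intronic share of Hsf1 was 71.3, 74.5, 72.3 and 69.6% with H3B-8800 in PyMT-M, against 29.0, 15.7, 28.5 and 23.7% with vehicle. It was 39.1 and 43.9% with H3B-8800 in AT3, against 15.4, 27.7 and 18.0% with vehicle. The 2208L values were 42.9, 35.8 and 33.8% with H3B-8800 and 8.49, 12.3 and 11.3% with vehicle.

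In those 3 models no vehicle tumor reached the lowest H3B-8800 tumor in Hsf1 intronic share. In T11 the order was opposite, with 9.97, 11.2 and 14.3% in libraries labelled H3B-8800 and 28.9, 50.7 and 43.7% in libraries labelled vehicle. Hsf1 had the highest intronic share of the 10 genes in every one of the 8 groups. The margin was narrowest in T11 labelled H3B-8800, where Hsf1 averaged 11.8% and Hsph1 9.29%.

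**Figure D2:**
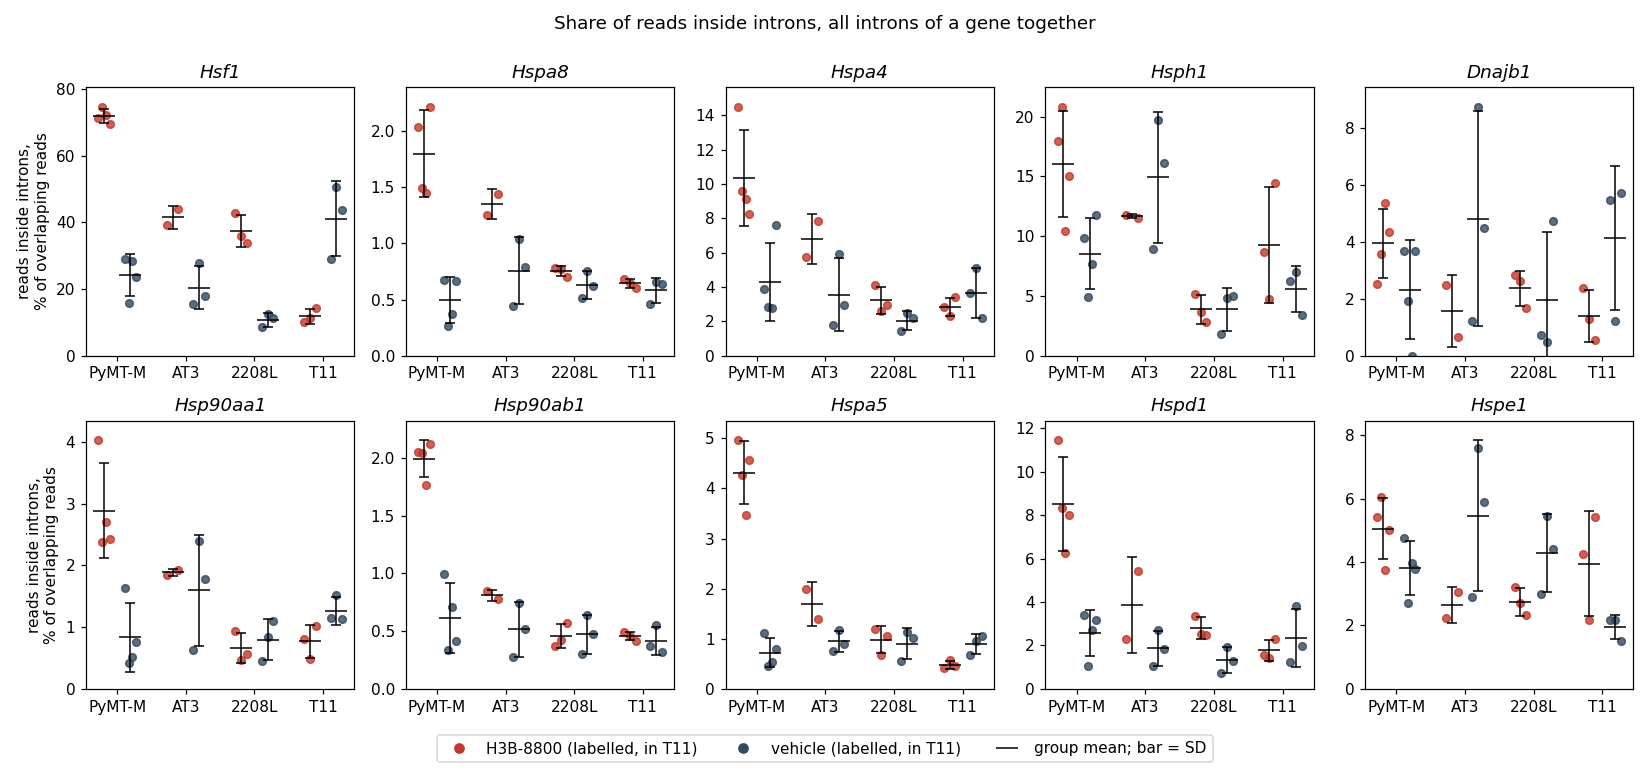
Percent of overlapping reads inside introns for the 10 genes in each of 25 libraries, a panel per gene, H3B-8800 left of vehicle in each model, with group means and SD as bars. Hsf1 stands at 69.6 to 74.5% in PyMT-M tumors given H3B-8800, while Hspa8, Hsp90ab1 and Hspa5 stay under 5% in every library.

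Intron 9 of Hsf1 (chr15:76498692-76499947, 1256 bases) had the highest intronic share among the tested Hsf1 introns in PyMT-M. Its intronic share was 95.9, 97.2, 96.4 and 96.9% with H3B-8800 in PyMT-M, against 60.4, 45.1, 66.3 and 61.2% with vehicle. In AT3 it was 84.1 and 88.7% with H3B-8800 and 49.1, 60.4 and 49.6% with vehicle, and in 2208L 86.9, 82.0 and 83.7% with H3B-8800 and 32.0, 51.1 and 37.1% with vehicle. The groups did not overlap in any of these models.

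Set against the gene's spliced reads, intron 9 reads rose by 3.55 ± 0.38 on the log2 scale in PyMT-M (edgeR adjusted p = 3.66e-09), by 2.09 ± 0.44 in AT3 (edgeR adjusted p = 0.00134) and by 2.93 ± 0.43 in 2208L (edgeR adjusted p = 2.11e-05). Libraries labelled H3B-8800 in T11 had 40.8, 47.6 and 55.3%, against 73.8, 91.0 and 90.3% in those labelled vehicle, a log2 difference of -2.91 ± 0.42 (edgeR adjusted p = 6.92e-06). This intron holds an annotated exon of 84 bases (chr15:76499132-76499215) that belongs to 2 protein-coding transcripts. Reads in that exon count as intronic here, and its inclusion and retention of the intron cannot be told apart in these counts.

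Hsf1 introns 4 and 6 hold no annotated exon and moved the same way. In PyMT-M, intron 4 averaged 86.2 ± 2.93% with H3B-8800 and 34.6 ± 17.8% with vehicle (SD, n = 4 each), a log2 rise of 3.20 ± 0.52 (edgeR adjusted p = 3.94e-06). Intron 6 (122 bases) averaged 61.0 ± 3.71% with H3B-8800 and 17.6 ± 7.12% with vehicle, a rise of 2.76 ± 0.55 (edgeR adjusted p = 6.99e-05). Both rose in 2208L as well, by 2.30 and 2.49, and did not pass in AT3, at 0.52 and 0.88 (edgeR adjusted p = 0.00829, 0.0091, 0.581 and 0.365).

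The first intron of Hsf1 (chr15:76477718-76495969), 18252 bases long, was called higher in all 3 models, by 1.78, 2.69 and 2.55 in PyMT-M, AT3 and 2208L (edgeR adjusted p = 0.0203, 0.0313 and 0.0479). It held 75.4, 46.9, 63.0 and 33.3% with H3B-8800 in PyMT-M, against 32.3, 41.2, 29.4 and 58.3% with vehicle, so these groups overlapped. With the intron's own spliced reads as offset all 3 calls were lost (edgeR adjusted p = 0.208, 0.0778 and 0.0999). The PyMT-M call was lost without H3B-8800 replicate 1 (edgeR adjusted p = 0.0872) or vehicle replicate 1 (edgeR adjusted p = 0.0586), and the other calls in most such removals. Intron 2 fell under the filter and was not tested: in PyMT-M 96 of 214 reads were intronic with H3B-8800 and 0 of 128 with vehicle, which allows a share of up to 2.34% for counting error alone.

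**Figure D3:**
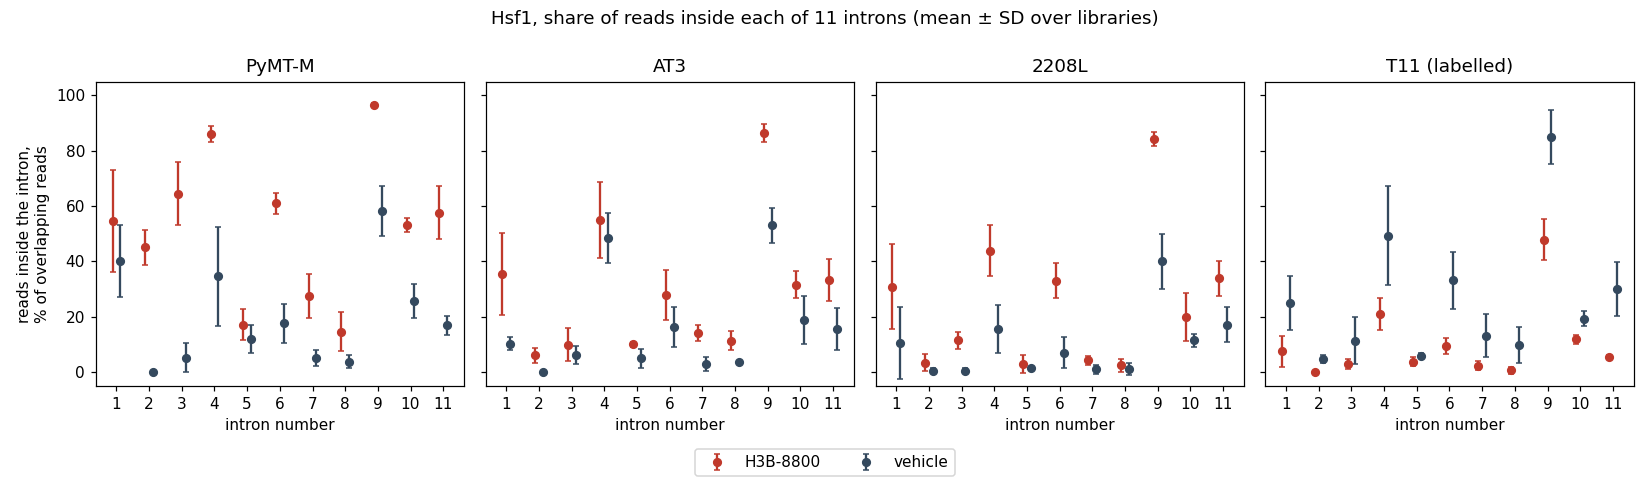
Percent of overlapping reads inside each of the 11 Hsf1 introns, in transcript order, as group means with SD, one panel for each model, H3B-8800 and vehicle in separate colours. In PyMT-M, intron 9 is at 96.6% with H3B-8800 and 58.2% with vehicle, and in T11 the 2 labelled groups stand in the opposite order.

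Introns that the results turn on are printed here in transcript direction from mm10, as kept in annotated transcripts that retain them, to show the 3′ ends that SF3B acts near. The last 40 bases, which span the usual branch point region, the pyrimidine tract and the closing AG, are in capitals. They are Hsf1 intron 6 (chr15:76497830-76497951, plus strand), Hspa8 introns 2 (chr9:40802128-40802417, plus) and 3 (chr9:40802624-40802738, plus), Hsp90ab1 intron 2 (chr17:45571620-45571764, minus) and Hspa5 intron 4 (chr2:34773934-34774027, plus).
Hsf1 intron 6: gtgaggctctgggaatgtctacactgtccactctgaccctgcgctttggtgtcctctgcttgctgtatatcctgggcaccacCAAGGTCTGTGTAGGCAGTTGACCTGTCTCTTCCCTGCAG
Hspa8 intron 2: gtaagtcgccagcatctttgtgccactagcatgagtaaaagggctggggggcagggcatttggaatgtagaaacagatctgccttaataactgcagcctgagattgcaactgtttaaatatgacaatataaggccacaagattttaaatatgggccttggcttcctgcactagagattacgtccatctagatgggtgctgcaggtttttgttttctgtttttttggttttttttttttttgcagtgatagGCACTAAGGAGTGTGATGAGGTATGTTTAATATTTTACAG
Hspa8 intron 3: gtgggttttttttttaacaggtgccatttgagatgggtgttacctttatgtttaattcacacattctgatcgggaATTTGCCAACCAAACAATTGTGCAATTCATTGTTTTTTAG
Hsp90ab1 intron 2: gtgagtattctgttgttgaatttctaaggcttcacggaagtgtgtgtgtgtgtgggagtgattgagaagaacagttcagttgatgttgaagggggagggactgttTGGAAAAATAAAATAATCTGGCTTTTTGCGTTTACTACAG
Hspa5 intron 4: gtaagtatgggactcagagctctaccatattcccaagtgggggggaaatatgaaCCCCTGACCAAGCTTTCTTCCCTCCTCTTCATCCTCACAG
Pyrimidines made up 57.5% of the capitals in Hsf1 intron 6, 42.5% in Hspa8 intron 2, 47.5% in Hsp90ab1 intron 2 and 77.5% in Hspa5 intron 4. These introns were chosen with their values in view, so the shares are a description and no rule was drawn from them.

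Hspa8 encodes HSC70, the constitutive cytosolic HSP70 that folds new protein and uncoats clathrin vesicles (chr9:40800984-40805200, plus strand, 9 exons). In 2208L its level was 2092, 1921 and 2201 CPM with H3B-8800, against 5065, 3029 and 3448 CPM with vehicle. The groups did not overlap, and vehicle replicate 1 stood above the others. The level fell by 0.89 ± 0.19 on the log2 scale (edgeR adjusted p = 0.00666). Without vehicle replicate 1, the library with muscle transcripts and a 3′ skew, the difference was -0.62 (edgeR adjusted p = 0.0528), and without the 4 skewed libraries together it was -0.66 (edgeR adjusted p = 0.00303).

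In PyMT-M, Hspa8 was at 1976, 1848, 2284 and 2210 CPM with H3B-8800 and 2312, 2201, 2206 and 2530 CPM with vehicle (log2 difference -0.15 ± 0.16, edgeR adjusted p = 0.527). In AT3 it was at 4081 and 3329 CPM with H3B-8800 and 3403, 3203 and 3809 CPM with vehicle, and in T11 at 2701, 3284 and 2904 CPM labelled H3B-8800 and 4723, 3025 and 3056 CPM labelled vehicle. Those groups overlapped in all 3 models. The mean effect over PyMT-M, AT3 and 2208L was -0.32 ± 0.11 (edgeR adjusted p = 0.0395), and without 2208L vehicle replicate 1 it was -0.23 (edgeR adjusted p = 0.103). That call was lost in 11 of 19 removals of a single library (edgeR adjusted p = 0.0504 to 0.123), those of PyMT-M H3B-8800 replicates 1 and 2 and vehicle 1 and 4, AT3 H3B-8800 replicate 2 and vehicle 1 and 3, and 2208L H3B-8800 replicates 1, 2 and 3 and vehicle 1.

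Intron 2 of Hspa8, 290 bases long, rose in all 3 models. It held 6.75, 4.54, 4.44 and 6.73% of overlapping reads with H3B-8800 in PyMT-M, against 0.270, 0.0770, 0.215 and 0% with vehicle. In AT3 it held 1.96 and 5.16% with H3B-8800 and 0.252, 0.743 and 0.479% with vehicle, and in 2208L 2.28, 1.68 and 0.920% with H3B-8800 and 0.129, 0.339 and 0.148% with vehicle. Every H3B-8800 tumor lay above every vehicle tumor of its model.

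The log2 rises were 5.39 ± 0.64, 2.91 ± 0.68 and 3.21 ± 0.69 in PyMT-M, AT3 and 2208L (edgeR adjusted p = 2.67e-08, 0.00308 and 0.00135). Without AT3 H3B-8800 replicate 2 the AT3 value was 1.42 (edgeR adjusted p = 0.326), and without the skewed AT3 H3B-8800 replicate 1, left out with the 3 others, it was 3.63 (edgeR adjusted p = 4.44e-06). In T11 the share was 0.242, 0.412 and 0.504% in libraries labelled H3B-8800 and 0.793, 1.03 and 1.09% in those labelled vehicle (log2 difference -1.20 ± 0.62, edgeR adjusted p = 0.167).

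Most junctions of Hspa8 split by host strain, while introns 2 and 8 overlapped between strains. Intron 8 separated by treatment in PyMT-M, narrowly, at 17.2 to 17.80% with H3B-8800 and 17.82 to 32.8% with vehicle. In 2208L it took 24.6 to 25.53% with H3B-8800 and 25.54 to 30.8% with vehicle. Intron 3 took 0.0730 to 0.329% of the spliced Hspa8 reads in the 12 libraries from Balb/c hosts (24 to 207 reads) and 8.07 to 14.6% in the 13 libraries from C57BL/6 hosts (2556 to 5150 reads). In 2208L there were 31, 26 and 24 such reads with H3B-8800 and 64, 66 and 84 with vehicle, while PyMT-M had 3972, 3999, 3927 and 3858 with H3B-8800 and 5150, 4101, 4008 and 2556 with vehicle. Both treatments of a model stood on the same side of the gap at intron 3, though the 2208L counts did not overlap between treatments.

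Intron 4 split too, at 1.26 to 1.79% in libraries from Balb/c hosts and 5.12 to 11.04% in libraries from C57BL/6 hosts, and intron 1 at 2.18 to 4.60% and 4.84 to 10.1%. Introns 5, 6 and 7 had higher shares in Balb/c hosts, where intron 7 took 24.4 to 29.1%, against 15.8 to 20.6% in C57BL/6 hosts. A share over 10 times lower in every Balb/c library than in every C57BL/6 library, a rule set after these values were seen, was met by 1 of 84 member introns compared and by 4 of 25758 introns of all genes (0.0155%). The opposite order was met by 0 of 25758.

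Strain and model cannot be told apart, and what lowered the reads at intron 3 in Balb/c hosts was not tested. The intronic share of that intron is unsteady where its junction reads are few: in 2208L it averaged 37.5 ± 13.5% with H3B-8800 and 3.11 ± 2.96% with vehicle (SD, n = 3 each), while in PyMT-M it averaged 0.989 ± 0.358% with H3B-8800 and 0.0795 ± 0.0280% with vehicle (SD, n = 4 each). Set against the gene's spliced reads, intron 3 rose by 3.43 ± 0.77 in 2208L and by 3.85 ± 0.64 in PyMT-M on the log2 scale (edgeR adjusted p = 0.00193 and 6.10e-06). Levels of Hspa8 compared across host strains carry the missing junction reads.

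**Figure D4:**
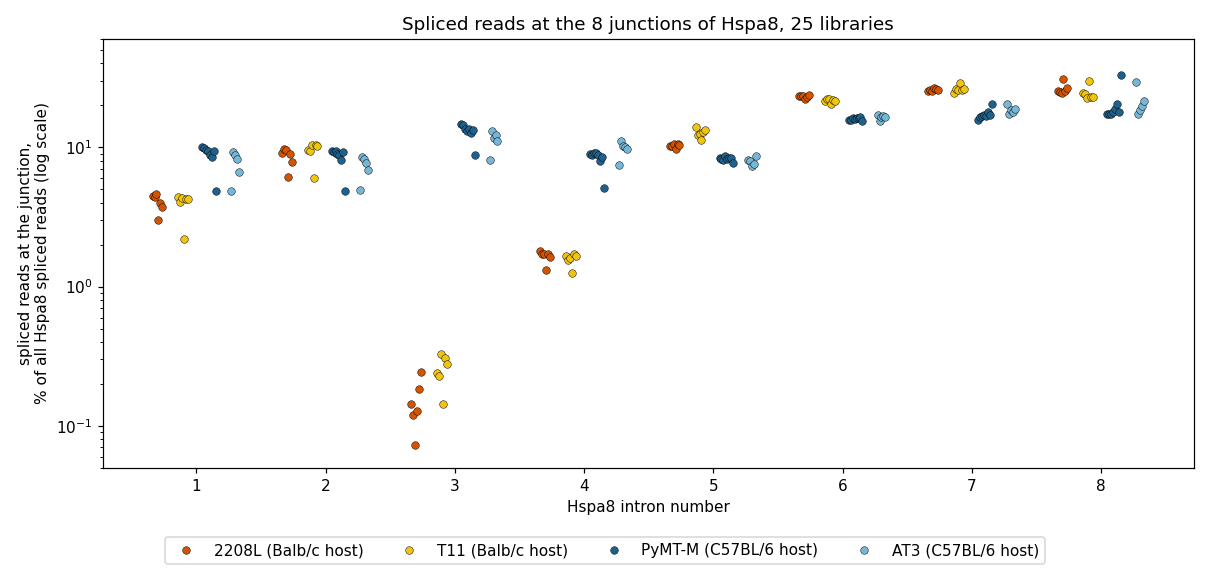
Percent of the spliced Hspa8 reads of a library found at each of its 8 junctions, on a log axis, one point per library, coloured by model and host strain. At intron 3 the 12 libraries from Balb/c hosts sit at 0.0730 to 0.329% and the 13 from C57BL/6 hosts at 8.07 to 14.6%.

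Hspa4 encodes an HSP110-type exchange factor that releases ADP from HSP70 (chr11:53259814-53300457, minus strand, 19 exons). In PyMT-M its level was 338, 335, 331 and 374 CPM with H3B-8800, against 316, 320.2, 307 and 329 CPM with vehicle. Every H3B-8800 tumor was above every vehicle tumor, by a small margin that did not pass (log2 difference 0.12 ± 0.09, edgeR adjusted p = 0.367). In T11 the libraries labelled H3B-8800 had 572, 581 and 510.3 CPM and those labelled vehicle 779, 674 and 672 CPM, a log2 difference of -0.35 ± 0.10 (edgeR adjusted p = 0.0316). The call was lost without T11 H3B-8800 replicate 1, 2 or 3 or vehicle replicate 1 (edgeR adjusted p = 0.0661, 0.0729, 0.181 and 0.0861), without the filter, with the median over introns, with the replicate block and with T11 libraries alone (edgeR adjusted p = 0.0863, 0.0984, 0.0806 and 0.316). In AT3, Hspa4 was at 457 and 416 CPM with H3B-8800 and 422, 423 and 464 CPM with vehicle, and in 2208L at 572, 638 and 554 CPM with H3B-8800 and 583, 534 and 527 CPM with vehicle, with overlapping groups and log2 differences of 0.00 and 0.10 that did not pass (edgeR adjusted p = 1 and 0.573).

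Introns 9, 11 and 12 of Hspa4 were called higher in PyMT-M, AT3 and 2208L. Intron 11 (chr11:53269870-53270945) held 13.2, 17.9, 15.9 and 9.97% with H3B-8800 in PyMT-M, against 0, 0.402, 0.820 and 1.02% with vehicle (log2 rise 4.98 ± 0.94, edgeR adjusted p = 3.75e-05). Intron 9 (chr11:53272121-53272726) held 33.6, 27.3, 18.5 and 23.4% with H3B-8800 and 1.04, 1.46, 1.37 and 10.3% with vehicle (3.83 ± 0.76, edgeR adjusted p = 7.57e-05). Vehicle replicate 4 was the high one among vehicle tumors and still lay below all 4 H3B-8800 tumors.

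In 2208L, intron 9 held 4.22, 5.86 and 6.58% with H3B-8800, against 0 of 703 overlapping reads with vehicle, which allows up to 0.427% (edgeR adjusted p = 0.00134). In AT3, intron 9 held 8.08 and 11.7% with H3B-8800 and 0, 2.91 and 0% with vehicle (3.09, edgeR adjusted p = 0.0255). In T11 no read of 1396 was inside it in libraries labelled H3B-8800, and 3.62, 5.46 and 4.27% were in those labelled vehicle (edgeR adjusted p = 0.00022).

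The AT3 call of intron 9 was lost without H3B-8800 replicate 2 or vehicle replicate 1 or 3 (edgeR adjusted p = 0.306, 0.122 and 0.111) and with the replicate block (edgeR adjusted p = 0.131). The AT3 call of intron 11 was lost without H3B-8800 replicate 2 or vehicle replicate 1 (edgeR adjusted p = 0.143 and 0.0560), and its 2208L call without H3B-8800 replicate 1 or vehicle replicate 1 or 3 (edgeR adjusted p = 0.0519, 0.0785 and 0.0592). Likewise lost were the AT3 and 2208L calls of intron 12 (chr11:53268586-53269687) under most removals of a single library. Intron 8 (chr11:53272879-53275142) was the only member intron lower in PyMT-M, by 2.06 on the log2 scale (edgeR adjusted p = 0.0400), and that call was absent without the 4 skewed libraries, where 0 member introns were lower.

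Hsph1, the HSP105 exchange factor of the same family (chr5:149616544-149636338, minus strand, 18 exons), had 168, 206 and 249 CPM with H3B-8800 in 2208L, against 593, 260.3 and 232 CPM with vehicle. The 593 CPM library was vehicle replicate 1, and the other libraries of both groups overlapped. The log2 difference was -0.80 ± 0.27 (edgeR adjusted p = 0.0653), and -0.23 without that library (edgeR adjusted p = 0.637). In the other 3 models no difference passed.

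Intron 1 of Hsph1 (chr5:149633888-149635969) held 42.9, 46.7, 35.1 and 43.9% with H3B-8800 in PyMT-M, against 15.7, 6.90, 11.4 and 11.8% with vehicle (log2 rise 2.66 ± 0.64, edgeR adjusted p = 0.000646). It did not rise elsewhere, with 49.1 and 33.0% with H3B-8800 and 34.0, 56.9 and 57.8% with vehicle in AT3 (log2 difference -0.87, edgeR adjusted p = 0.405).

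Dnajb1 encodes the J protein HSP40, which hands unfolded clients to HSP70 (chr8:83608193-83612653, plus strand). It rested on 1 listed intron and 89 to 361 spliced reads a library, and its level was 8.51, 9.05, 8.34 and 8.23 CPM with H3B-8800 in PyMT-M, against 6.40, 6.97, 6.51 and 9.08 CPM with vehicle. The groups overlapped in all 4 models, with log2 differences from -0.29 to 0.24, none of which passed. Its intron had a mean of 4.76 intronic reads and was not tested.

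The cytosolic HSP90 pair matures kinases and hormone receptors. Hsp90ab1, the constitutive form (chr17:45567775-45573271, minus strand), was at 5322 and 5409 CPM with H3B-8800 in AT3, against 4139.7, 4088 and 4740.03 CPM with vehicle. The groups did not overlap, but the log2 difference of 0.31 ± 0.15 did not pass (edgeR adjusted p = 0.369). In T11 it was at 3771, 3723 and 4150.3 CPM labelled H3B-8800 and 4608, 4707 and 4641 CPM labelled vehicle (-0.26, edgeR adjusted p = 0.208).

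Hsp90aa1, the inducible form (chr12:110690605-110696395, minus strand), was at 572, 406, 502 and 731 CPM with H3B-8800 in PyMT-M and 581, 481, 426 and 405 CPM with vehicle, with overlapping groups. No level of either gene passed under the drug in any model.

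In PyMT-M, where 54.7% of all introns rose, 8 of 10 tested introns rose in Hsp90ab1 and 3 of 7 in Hsp90aa1, whose median log2 change was 0.64 against 1.57 over all introns. Intron 2 of Hsp90ab1 held 1.65, 1.69, 1.47 and 1.84% with H3B-8800, against 0.215, 0.0506, 0.203 and 0.128% with vehicle (log2 rise 3.60 ± 0.60, edgeR adjusted p = 6.42e-06). Intron 1 of Hsp90aa1 (chr12:110695681-110696251) held 15.3, 7.09, 13.2 and 11.2% with H3B-8800, against 1.19, 0.651, 0.781 and 0.389% with vehicle (4.02 ± 0.64, edgeR adjusted p = 2.75e-06). Neither pair of groups overlapped.

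The same Hsp90aa1 intron, which holds an annotated exon, went the other way in T11, with 0.887, 0.733 and 0.884% in libraries labelled H3B-8800 and 3.14, 9.47 and 6.47% in those labelled vehicle (log2 difference -2.88 ± 0.65, edgeR adjusted p = 0.00147). In AT3 it rose by 2.35 (edgeR adjusted p = 0.0295), on the 4.30% of H3B-8800 replicate 2: without that library the value was 0.45 (edgeR adjusted p = 0.880).

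Hspa5 encodes BiP, the HSP70 of the endoplasmic reticulum and a target of the unfolded protein response (chr2:34772095-34776531, plus strand, 8 exons). Its level was 950.0, 886, 987 and 834 CPM with H3B-8800 in PyMT-M, against 761, 675, 967 and 651 CPM with vehicle. Vehicle replicate 3 overlapped the H3B-8800 group, and the log2 difference of 0.26 ± 0.13 did not pass (edgeR adjusted p = 0.157). In AT3 it was at 693 and 758 CPM with H3B-8800 and 584, 528 and 663 CPM with vehicle (0.29 ± 0.17, edgeR adjusted p = 0.489). In 2208L and T11 the Hspa5 groups overlapped, with log2 differences of 0.07 and -0.19 (edgeR adjusted p = 0.816 and 0.474). The mean effect over the 3 models was 0.21 ± 0.09 (edgeR adjusted p = 0.0922).

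In PyMT-M, 6 of 7 Hspa5 introns rose, and intron 4, of 94 bases, had the smallest p. It held 8.01, 6.53, 4.92 and 6.16% with H3B-8800, against 0.5256, 0.326, 0.389 and 0.958% with vehicle, with no overlap (log2 rise 3.81 ± 0.50, edgeR adjusted p = 1.39e-07). In 2208L it held 1.43, 0.459 and 1.12% with H3B-8800 and 0.193, 0.294 and 0.123% with vehicle (2.45 ± 0.62, edgeR adjusted p = 0.00554). In AT3 the rise of 1.51 ± 0.60 did not pass (edgeR adjusted p = 0.0700).

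In T11, intron 4 of Hspa5 held 0.205, 0.433 and 0.187% in libraries labelled H3B-8800 and 1.24, 0.806 and 1.01% in those labelled vehicle. That difference of -1.90 ± 0.56 (edgeR adjusted p = 0.0129) was lost without T11 H3B-8800 replicate 1 (edgeR adjusted p = 0.0689) or 3 (edgeR adjusted p = 0.0584).

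Hspd1 (HSP60; chr1:55077835-55088024, minus strand) and Hspe1 (HSP10; chr1:55088132-55091307, plus strand) form the mitochondrial folding chamber and its lid. They start 108 bases apart on opposite strands. Hspd1 was at 385, 314, 355 and 495 CPM with H3B-8800 in PyMT-M and 361, 348, 304 and 312 CPM with vehicle (log2 difference 0.23 ± 0.15, edgeR adjusted p = 0.280). In AT3 it was at 1261 and 975 CPM with H3B-8800 and 1086, 1013 and 1246 CPM with vehicle, in 2208L at 767, 1008 and 853 CPM with H3B-8800 and 1168, 901 and 965 CPM with vehicle, and in T11 at 1034, 1176 and 959 CPM labelled H3B-8800 and 1144, 1224 and 1520.4 CPM labelled vehicle. All 4 pairs of groups overlapped, and the log2 differences of 0.00, -0.21 and -0.29 did not pass (edgeR adjusted p = 1, 0.467 and 0.281). Hspe1 was at 656 and 302 CPM with H3B-8800 in AT3 and 270.5, 278 and 369 CPM with vehicle. The 656 CPM library is the AT3 library skewed to the 3′ end, and the difference of 0.65 ± 0.29 did not pass (edgeR adjusted p = 0.339).

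In T11, Hspe1 was at 274, 268 and 209 CPM labelled H3B-8800 and 492, 361 and 340.2 CPM labelled vehicle (log2 difference -0.67 ± 0.26, edgeR adjusted p = 0.1003), without overlap. Its groups overlapped in PyMT-M and 2208L, with log2 differences of 0.00 and -0.27 (edgeR adjusted p = 1 and 0.549). The highest T11 level, 492 CPM, is again the skewed library of that model. The reference names 5 pseudogenes after Hspd1 and 6 after Hspe1, so their counts are uncertain where reads were split between copies.

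Intron 2 of Hspd1 (chr1:55084786-55086765) held 37.9, 27.5, 23.5 and 26.9% with H3B-8800 in PyMT-M, against 7.25, 0.407, 7.96 and 4.84% with vehicle (log2 rise 2.98 ± 0.57, edgeR adjusted p = 4.89e-05). In 2208L it held 13.7, 9.61 and 9.20% with H3B-8800 and 1.81, 4.63 and 3.53% with vehicle (2.03 ± 0.64, edgeR adjusted p = 0.0211), a call lost without vehicle replicate 1 (edgeR adjusted p = 0.121), vehicle replicate 3 (edgeR adjusted p = 0.0593) or H3B-8800 replicate 1 (edgeR adjusted p = 0.0824).

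Hspe1 stood apart within the pair. Its intron 1 (chr1:55088413-55089050) rose in PyMT-M, at 4.29, 3.48, 2.77 and 3.93% with H3B-8800 against 0.824, 0, 1.93 and 0.666% with vehicle (log2 rise 2.27 ± 0.75, edgeR adjusted p = 0.00932). Its intron 2 (chr1:55089216-55090712) fell by 0.64 on the log2 scale over the 3 models (edgeR adjusted p = 0.0248) and was higher by 1.17 in T11 libraries labelled H3B-8800 (edgeR adjusted p = 0.0468), against the direction of every other member intron called there.

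HSF1 acts through heat shock elements in promoters, so promoter letters were searched. RefSeq (GRCm38.p6) gave promoter sequence for 6 of the 10 genes. The heat shock element, searched on both strands as TTC, GAA and TTC with 2 bases of any kind between units, was found in 198 of 32851 promoters (0.603%). The endoplasmic reticulum stress element, searched on both strands as CCAAT, 9 bases of any kind and CCACG, was found in 39 (0.119%). Hspe1 holds 2 overlapping heat shock matches, and the 2 matches in 1 entry of Hspd1 are the same bases of their shared promoter read on the other strand. Hsph1 holds 1 heat shock match, and Hspa5 holds 1 stress element. Dnajb1 and Hspa4 held neither in this window. The windows of 100 bases that hold a match, from 130 to 31 bases before the start, are printed with the match in capitals (Hspe1 at chr1:55088018-55088117 and Hspa5 at chr2:34771960-34772059, both plus strand).
Hspe1 promoter: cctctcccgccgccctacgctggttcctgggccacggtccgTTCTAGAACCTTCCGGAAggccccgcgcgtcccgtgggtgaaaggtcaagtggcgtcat
Hspa5 promoter: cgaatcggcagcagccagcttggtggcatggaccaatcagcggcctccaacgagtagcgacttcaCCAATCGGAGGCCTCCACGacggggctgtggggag
Neither gene passed in level under H3B-8800 in any model, as given above, and a match is a match of letters only.

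Over all tested introns of the 10 genes, 52 of 76 rose and 1 fell in PyMT-M, where 60.3% of all introns tested changed (54.7% rose and 5.67% fell). In AT3 11 rose (19.7% of all introns changed and 19.4% rose), and in 2208L 14 rose (21.5% changed and 21% rose). In T11 9 were lower and 1 higher in libraries labelled H3B-8800 (20.4% changed, 19.7% lower and 0.761% higher). The mean of 3 models had 42 higher and 1 lower (58.7% changed, 56.1% higher and 2.65% lower). The members' median log2 change was 1.99 in PyMT-M, against 1.57 over all introns, but 0.62 against 1.10 in AT3 and 0.71 against 1.07 in 2208L. In T11 it was -0.22, against -0.84 over all introns.

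The genes shared these calls unevenly. In PyMT-M, 8 of 9 tested introns rose in Hsf1, 6 of 8 in Hspa8, 7 of 9 in Hspd1, 7 of 13 in Hspa4, 6 of 10 in Hsph1 and 1 of 3 in Hspe1. Hspa8 introns 1, 5, 6 and 8 hold an annotated exon, and small nucleolar RNA genes lie in its introns 5, 6 and 8. Reads from these count as intronic here and cannot be told apart from retention. In AT3 and 2208L, Hspa4 had 5 of 13 in each and Hspa8 2 of 8 in each, while Hsf1 had 2 in AT3 and 5 in 2208L. Of the 76 introns, 6 were called higher in all 3 models, those being Hsf1 introns 1 and 9, Hspa8 intron 2 and Hspa4 introns 9, 11 and 12, where 10.7% of all introns were.

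Members' shares by intron length were set beside those of all introns. In PyMT-M, 76.9% of the 13 member introns of 120 bases or less rose, against 77.9% of all such introns, and 57.9% of 19 introns of over 120 and up to 300 bases, against 71.1%. Of 25 introns of over 300 and up to 1000 bases 80% rose, against 66.7%. In AT3 the members lay below the background in each class up to 1000 bases, at 7.69, 5.26 and 16% against 27.5, 25.8 and 24.4%, and in 2208L at 15.4, 15.8 and 16% against 29.6, 26.2 and 23.8%. These shares rest on 1, 1 and 4 introns in AT3 and 2, 3 and 4 in 2208L. In the longer classes the members were at 20 and 50% in AT3, against 20.4 and 11.7%. In 2208L they were at 26.7 and 25% there, against 22.5 and 14.3%.

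**Figure D5:**
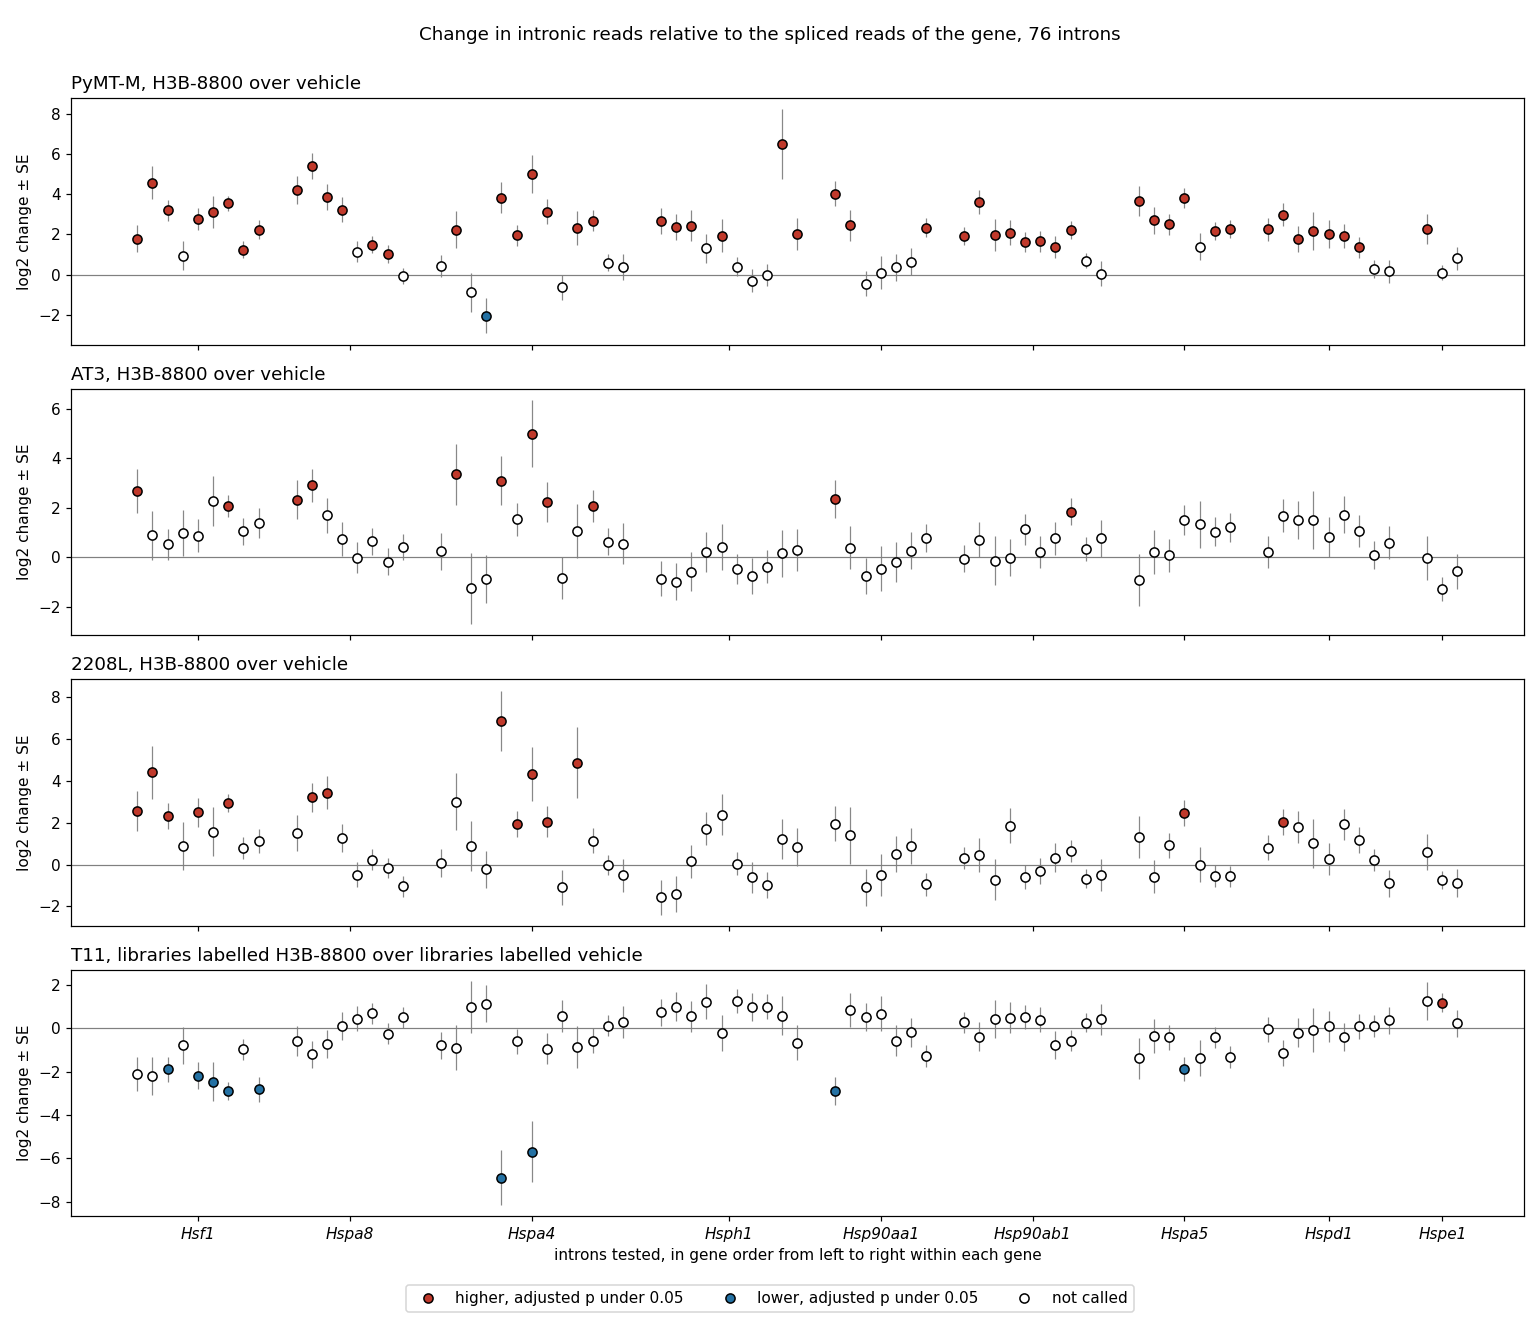
Log2 change in intronic reads set against the gene's spliced reads, H3B-8800 over vehicle, with SE, for the 76 tested introns of 9 genes in each of 4 models, red where called higher, blue where called lower and white where not called. In PyMT-M 52 are red, and in T11 9 are blue and 1 is red.

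Seen gene by gene, the intronic share of every H3B-8800 library was above every vehicle library for 7 of the 10 genes in PyMT-M (45.7% of all genes), 4 in AT3 (40.7%) and 3 in 2208L (47.5%). In T11, 3 of 10 were below in every library labelled H3B-8800 (30.8%) and 0 above (2.36%). Hspa8, whose level fell in 2208L, had overlapping groups there in this share over the whole gene. It averaged 0.753 ± 0.0430% with H3B-8800 and 0.629 ± 0.123% with vehicle in those tumors (SD, n = 3 each). Of its 8 tested introns, 2 were called higher in 2208L, introns 2 and 3, as given above.

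No difference between models in the drug effect on a member's level passed, with edgeR calling 0 of 10 in each of 3 comparisons (over all genes 1.1% for PyMT-M minus AT3, 1.92% for PyMT-M minus 2208L and 0.0154% for AT3 minus 2208L). Unadjusted, 1, 2 and 4 of the 10 had p under 0.05, and DESeq2 called Hspa8 in AT3 minus 2208L. The Hspa8 effect differed by 0.99 ± 0.28 on the log2 scale in that pair (edgeR adjusted p = 0.151), and the Hsf1 effect by -0.67 ± 0.27 in PyMT-M minus AT3 (edgeR adjusted p = 0.241). Introns gave 0 of 76 in the same comparisons with edgeR (over all introns 0.00192, 0.117 and 0.00192%), with 21, 20 and 6 at an unadjusted p under 0.05. The shares over all genes and introns are for adjusted p. Unadjusted counts were not made over all features, so those of the members cannot be read as particular to them.

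More members passed between models than under the drug. Among vehicle tumors PyMT-M had the lowest mean level of 9 of the 10 genes, and AT3 of Hspa5. The same count was not made over all genes, so that 9 of 10 cannot be read as particular to the members. Against T11 vehicle, PyMT-M vehicle was lower in 10 of 10 (63.4% of all genes differed and 31.3% were lower). Against AT3 vehicle it was lower in 9 and higher in Hspa5 (60% differed, 28% lower and 32.1% higher), and against 2208L vehicle lower in 7 (45.5% differed and 22% were lower). The comparisons share vehicle libraries, and those with T11 and 2208L also cross host strains.

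Hspd1 gave the firmest of these within a host strain, at 361, 348, 304 and 312 CPM in PyMT-M vehicle tumors and 1086, 1013 and 1246 CPM in AT3 vehicle tumors (log2 difference -1.75 ± 0.16, edgeR adjusted p = 7.03e-09). Hsph1, Dnajb1 and Hsp90aa1 were lower in PyMT-M than AT3 vehicle tumors by 1.41, 1.31 and 1.30 on the log2 scale. Hspa5 was higher by 0.37 ± 0.14 (edgeR adjusted p = 0.0322), and that call was lost without PyMT-M vehicle replicate 1 or 3 (edgeR adjusted p = 0.0966 and 0.150) or AT3 vehicle replicate 1 or 2 (edgeR adjusted p = 0.135 and 0.227).

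Within Balb/c hosts, 2208L vehicle was lower than T11 vehicle in 4 of 10 (45.6% of all genes differed and 22.5% were lower). Hsp90aa1 differed most, at 789, 532 and 526 CPM in 2208L vehicle tumors and 1846, 1961 and 2414 CPM in tumors labelled T11 vehicle (log2 difference -1.75 ± 0.20, edgeR adjusted p = 3.87e-07). Hsp90ab1, Hspa5 and Hspa4 were lower by 0.72, 0.55 and 0.37. Without the 4 skewed libraries, 7 of 10 differed, with Dnajb1 higher by 1.07 and Hspd1 and Hspe1 lower by 0.54 and 0.51 (edgeR adjusted p = 0.00965, 0.0297 and 0.0287).

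Of the remaining pairs, 2208L vehicle was higher than AT3 vehicle in Hspa4, Hspa5 and Hsph1 and lower in both HSP90 genes (45.2% of all genes differed, 24.5% higher and 20.7% lower), and AT3 vehicle was lower than T11 vehicle in Hspa4, Hspa5 and Hsp90aa1 (40.5% differed and 22.4% were lower). Per junction, which allows genes to be ranked, Hspa8 and Hsp90ab1 were the most abundant in vehicle tumors of every model, at 289 and 237 CPM per junction in PyMT-M, 434 and 432 in AT3, 481 and 283 in 2208L and 450.2 and 465 in T11. Hsf1 was the lowest in every model, at 3.99, 7.02, 5.59 and 5.78 CPM per junction in PyMT-M, AT3, 2208L and T11. Hsph1 was next in PyMT-M and AT3, at 4.22 and 11.2, and in PyMT-M the gap to Hsf1 was within the SD of either gene, 0.763 for Hsf1 and 0.702 for Hsph1.

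A wider list of 77 chaperone and co-chaperone genes put the members in context, 73 of them tested. In PyMT-M 16 rose and 5 fell, where 24.8% of all genes changed, with a median log2 change of 0.06 against 0.02 over all genes. The J proteins, cofactors of HSP70, had 6 of 14 higher and none lower, and the 8 subunits of the TRiC folding chamber had 2 lower and none higher. In AT3 0 of the 73 passed (0.3% of all genes), in 2208L 1 rose and 5 fell (10.3%), and in T11 1 was higher and 10 lower in libraries labelled H3B-8800 (11.7%). With both directions together, these counts are close to the background. By direction, 14.6% of all genes fell in PyMT-M and the rest of the 24.8% rose, a smaller share than 16 of 73 or the 6 of 14 J proteins. In 2208L 5.67% of all genes fell. In T11 5.07% were lower, a smaller share than 10 of 73, and 6.66% were higher. No test of the list as a set was run, and the J protein and TRiC groups are small.

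The genes with the smallest p in PyMT-M were Fkbp5, Dnajb9, Xbp1 and Dnaja4. Fkbp5, an HSP90 co-chaperone of steroid receptors, averaged 28.4 ± 7.07 CPM with H3B-8800 and 82.7 ± 3.68 CPM with vehicle (SD, n = 4 each), a fall of 1.54 ± 0.19 on the log2 scale (edgeR adjusted p = 1.34e-05). Dnajb9, the J protein that works with BiP, rose by 1.27 ± 0.24 (60.6 ± 21.8 CPM with H3B-8800 and 25.1 ± 9.93 CPM with vehicle, edgeR adjusted p = 0.000742). Xbp1, a transcription factor of the unfolded protein response, rose by 0.85 ± 0.16 (edgeR adjusted p = 0.000785), and Dnaja4, a cytosolic J protein, by 1.27 ± 0.24 (edgeR adjusted p = 0.000844).

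In 2208L the smallest p belonged to Chordc1. This HSP90 co-chaperone averaged 44.8 ± 5.07 CPM with H3B-8800 and 146 ± 44.2 CPM with vehicle (SD, n = 3 each), a fall of 1.70 ± 0.26 (edgeR adjusted p = 0.000682). Fkbp4, an HSP90 co-chaperone, fell by 0.82 ± 0.17 and Dnaja1, a J protein of HSC70, by 0.80 ± 0.19 (edgeR adjusted p = 0.00465 and 0.0107). The vehicle libraries were widely spread for Dnaja1, at 514 ± 179 CPM (SD) and from 404 to 720 CPM, against 295 ± 22.7 CPM with H3B-8800. Dnajb6, a J protein against aggregation, rose by 0.78 ± 0.19 (edgeR adjusted p = 0.0118). Removal of single libraries was not run for the genes of this wider list. Over the 3 models Chordc1 fell by 1.05 ± 0.15 and Fkbp5 by 0.90 ± 0.13, and Dnajb6 rose by 0.63 ± 0.11 (edgeR adjusted p = 4.43e-05, 5.23e-05 and 0.00025).

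In T11, Dnajb6 and Xbp1 were lower in libraries labelled H3B-8800, by 0.82 and 0.80 on the log2 scale (edgeR adjusted p = 0.0075 and 0.0094), each opposite to its rise above. Sdf2l1, a cofactor of BiP, was higher by 1.09 there (edgeR adjusted p = 0.00517), and Ubb, a ubiquitin gene, lower by 0.50 (edgeR adjusted p = 0.0158).

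Across the 25 libraries, members followed each other to different degrees, which is a description that mixes models, hosts and depth. On values that mix models the highest r was that of Hsph1 and Hspd1 (Pearson r = 0.924, and 0.612 after group means were subtracted), followed by the 2 HSP90 genes (0.886 and 0.538) and by Hspd1 and Hspe1 (0.857 and 0.486). After group means were subtracted, the highest were Hsp90aa1 with Hspd1 (0.845, and 0.776 before) and with Hsph1 (0.773, and 0.637 before). Hspa5 gave the lowest values, at -0.160 with Dnajb1 and -0.006 with Hspa8.

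Outside the list, the gene most like Hspd1 was Cacybp (0.978, and 0.828 within groups), the gene most like Hspe1 was Snrpe (0.974 and 0.934), and the gene most like Hsf1 was Recql4 (0.962 and 0.742). Hsph1 was closest to Ptges3 (0.941 and 0.572), Hspa4 to Gmps (0.960 and 0.693), Hspa8 to Ccdc58 (0.883 and 0.715) and Hspa5 to Nars (0.872 and 0.603). The closest genes for Hsp90aa1, Hsp90ab1 and Dnajb1 were Crtam (0.971 and 0.527), Maoa (0.959 and 0.264) and Mnd1 (0.854 and 0.479), whose likeness fell most within groups.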

How the data were processed

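Poly(A) RNA of 25 whole tumors was sequenced from stranded libraries, per the labels' protocols. Per the submitters' processing notes the reads were handled with HISAT2 2.0.4, and mm10 and hg38 are the genome builds given there. The authors deposited for each library a list of introns with counts of reads overlapping and inside each intron and the matching RPKM values; the step that counted them is not given in the sources used here. RPKM deposited by the authors was only checked against the counts, and coordinates match mm10. A total of 163337 introns were listed, and 22 without values were left out.

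Spliced reads of a gene were summed over introns and tested with edgeR 4.0.16 (R 4.3.3), robust quasi-likelihood, TMM scaling, 8 group means over all 25 libraries, for genes that reached a CPM of 1 in 2 or more libraries. Intronic reads of each intron (where these averaged 5 or more, beside 10 or more spliced reads) were tested with the log of the spliced reads of the gene as offset. P-values were Benjamini-Hochberg adjusted over all features, with a threshold of 0.05 and a prior count of 2. In simulated data for PyMT-M over 12833 genes, 42% of genes lowered by 1 on the log2 scale were recovered, and 56% of genes raised by 1. At a change of 0.5, 4% of lowered and 0% of raised genes were recovered, so a level that did not pass can hide changes of that size. DESeq2 1.42.0, limma 3.58.1, other scalings, filters, gene counts, a replicate block and removal of each library were tried as alternatives. Depth was 9820825 to 19700955 spliced reads. Values after ± are the SE of the edgeR fit or the SD between libraries, and both include spread between tumors. Only the limits given for counts of 0 cover counting error alone.

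Every member was named by rule in every drug comparison within a model, with values for those the results turn on. An intron was named if it had the smallest p of its gene in PyMT-M or was called the same way in PyMT-M, AT3 and 2208L, and up to 4 of the other chaperones per comparison by smallest p. Other Hsf1 introns, Hspa8 intron 3, Hspa4 intron 8 and Hspe1 intron 2 were chosen after their values were seen. The members and lists were chosen with earlier results of these data known. The design text describes biological replicates, and p-values measure the spread between them.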

Additional observations from a re-analysis of the deposited data

Results flagged for a closer look

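In groups of 4, a library far from the others was found in 3 of 64 groups of values (4.69%), near the 1 in 20 that chance gives. PyMT-M H3B-8800 replicate 4 had 374 CPM of Hspa4. PyMT-M vehicle replicate 1 had 89.5 CPM of Hsph1. PyMT-M vehicle replicate 4 had 10.3% of reads inside Hspa4 intron 9.

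Some members moved in opposite directions in 2 models with groups that did not overlap in either, and these differences were not tested. Every case sets T11, by its labels, against another model. How many of all genes meet this rule was not counted, so the cases cannot be read as particular to the members. As the H3B-8800 mean minus the vehicle mean, Hsf1 was at -20.2 CPM in PyMT-M and -19.8 CPM in 2208L, against 37.0 CPM in T11 by label. Hspa4 was at 26.6 CPM in PyMT-M and -154 CPM in T11, and Hsp90ab1 at 1040 CPM in AT3 and -771 CPM in T11. In percent of reads inside introns, Hsf1 was at 47.7 in PyMT-M, 21.1 in AT3, 26.8 in 2208L and -29.3 in T11. Hspa5 was at 3.59 in PyMT-M, 0.749 in AT3 and -0.418 in T11, and Hsp90aa1 at 2.05 in PyMT-M and -0.494 in T11.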

How the results depend on the processing

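Leaving out each library in turn, the number of members with a changed level ran from 1 to 2 in PyMT-M (1 with all libraries), 0 to 1 in AT3 (0), 0 to 2 in 2208L (1), 0 to 2 in T11 (2) and 1 to 3 for the mean of 3 models (2). With overlapping reads in place of spliced reads the counts were 0 in PyMT-M, 2 in 2208L, 0 in T11 and 1 for the mean, and Hsf1 turned to 0.24 in PyMT-M and 0.013 for the mean, by the construction of that count. DESeq2 called 2 in 2208L and 1 for AT3 minus 2208L, and the libraries of a model alone gave 2 in 2208L and 0 in T11. The mean had 1 call with DESeq2 size factors, with the median over introns and with the replicate block, and T11 1 call without the filter, with the median and with the block. Without the 6 libraries past the muscle or B cell limit, chosen after seeing the data, the counts were 0 in 2208L, 0 in T11 and 1 for the mean. Without the 4 libraries skewed to the 3′ end, also chosen after seeing the data, 2208L over T11 vehicle had 7 in place of 4.

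Of member introns, removals of a single library gave 43 to 51 in PyMT-M (53), 2 to 12 in AT3 (11), 5 to 12 in 2208L (14), 5 to 11 in T11 (10) and 35 to 46 for the mean (43). AT3 had 2 with the replicate block and 4 with limma, and without the 6 libraries the counts were 7 in AT3, 4 in 2208L and 3 in T11. Other chaperones numbered 10 in 2208L (6) and 18 in T11 (11) with DESeq2, and 5 in T11 without the filter. The cause of these shifts was not tested. Same-numbered deviations from the group means correlated at -0.364 to 0.369. With so few libraries in a group, these values cannot tell whether replicate numbers pair the tumors. Apart from single removals, 767 of 800 gene values and 365 of 405 named intron values stayed uncalled, or stayed called in the same direction. For values that stayed uncalled the direction was not compared. Of the counts, 104 of 130 stayed equal or near to the main count, whatever the direction. Depth limits Dnajb1 and the introns with few reads.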
